A study of Homo sapiens with 24 samples.

Results

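RT-112 is a human bladder cancer cell line with urothelial features. The comparison described here sets the 3 libraries of its derived line with low CD44 receptor expression (CD44 Low) against the 3 libraries of the parental cells, chosen by their labels. These are 6 of the 24 libraries of the series, which also holds RT-112 CD44 High and CD44v6 lines and the same 4 groups of a second bladder cancer line, J82. Total RNA was sequenced, the 3 libraries of a group are labelled as biological replicates, and no agent, age or genetic alteration is given for either group. How the CD44 Low line was obtained is not in the labels, nor is it said whether it is 1 clone or whether its replicates were separate cultures, so p-values measure the spread between these libraries.

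CD44 is a cell-surface glycoprotein that binds hyaluronan, a polysaccharide of the extracellular matrix, and links it to the cortical cytoskeleton. In urothelium it is most abundant in the basal layer, beside basal keratins such as KRT5, while umbrella cells at the lumen carry uroplakins and KRT20. Replication-dependent histone mRNAs are made for S phase, lack a poly(A) tail and rise and fall with DNA synthesis.

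Levels are in CPM, counts scaled to libraries of equal size and composition, and fold changes are CD44 Low minus parental on the log2 scale. They come from edgeR's quasi-likelihood F-test on all 12 RT-112 libraries, which all share 1 estimate of spread. Of the 35993 genes counted, 15645 passed the filter on low counts and were tested. Adjustment of p (Benjamini-Hochberg) ran over all of these, and calls are at adjusted p below 0.05. At that threshold 500 genes were called, 3.2% of those tested: 208 were higher in CD44 Low (1.33%) and 292 were lower (1.87%). The libraries held 17649580 to 24419670 counts. The median fold change over all genes tested was -0.01, and 28 called genes rose and 94 fell by at least 1 on the log2 scale. The counts depend strongly on single libraries: 142 to 217 genes were called when CD44 Low replicate 1 or 2 or any parental replicate was left out, and 798 without CD44 Low replicate 3. Of the 83 called genes named below, 26 were called in each of these 6 fits, and CEACAM5, DUSP6 and FADS1 in none. The CD44 High and CD44v6 comparisons use the same parental libraries as controls, so their values are given only side by side.

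CD44 itself checks the labels. It stood at 117, 147 and 151 CPM in the CD44 Low libraries and at 316, 347 and 293 CPM in the parental libraries, with no overlap. Its transcript was 2.3-fold lower (log2 fold change -1.20, SE 0.15, edgeR adjusted p = 0.00123) and was still present, so the line is low in CD44 transcript and not without it. Receptor protein was not measured here. The antisense gene CD44-AS1 overlaps a CD44 exon, and without stated strand its reads cannot be told apart from those of CD44. None of the 6 tested genes of hyaluronan synthesis, breakdown and binding other than CD44 was called. HMMR, a second hyaluronan receptor, had a log2 fold change of -0.33 (adjusted p = 0.506) and CEMIP2, a transmembrane relative of the hyaluronidase CEMIP, 0.31 (adjusted p = 0.18). Among partners of the receptor none of 11 was called, with values of -0.20 (adjusted p = 0.446) for EZR, the cortical linker ezrin, and -0.24 (adjusted p = 0.27) for MET, the HGF receptor. By unadjusted p, 2960 genes of the table were under 0.05.

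Leading genes were picked outside the histone and short RNA lists, among called genes with an average of at least 3 in log2 CPM and no overlap between the groups. Of these the surface proteins CD109 and CD73 fell furthest, followed by the collagenase MMP13 and the chromatin protein HMGA2. CD109, a GPI-anchored surface protein, stood at 2.63, 1.93 and 2.97 CPM in CD44 Low against 10.8, 13.2 and 11.1 CPM in parental cells. The groups did not overlap, and the level was 4.67-fold lower (log2 fold change -2.22, SE 0.48, edgeR adjusted p = 0.0267). CD109 was called in 1 of the 6 fits with a library left out, that without CD44 Low replicate 3, and had an adjusted p of up to 0.117 in the others and of 0.0598 with the replicate block. NT5E and HMGA2 were called in all 6 and MMP13 in 2. NT5E, the ecto-5'-nucleotidase CD73 that makes extracellular adenosine, was at 9.7, 11.2 and 12.2 CPM against 49.7, 38.5 and 41.4 CPM. It was 3.91-fold lower, and it was the called member among 9 tested genes of the adenosine pathway, beside 1.87% of all genes called lower. The adenosine receptor ADORA2B had a log2 fold change of -0.16 (adjusted p = 0.64) and the nucleoside carrier SLC29A1 one of -0.38 (adjusted p = 0.125).

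HMGA2, an architectural chromatin protein of fetal and tumour tissue, stood at 2.63, 3.3 and 4.69 CPM in CD44 Low and at 14.5, 9.52 and 11.8 CPM in parental cells. It fell by 1.76 on the log2 scale (SE 0.22, edgeR adjusted p = 0.00131). Its paralogue HMGA1 fell by 0.67 (adjusted p = 0.00873), and IGF2BP2, an mRNA-binding protein whose transcription HMGA2 is known to raise, fell by 0.75 (adjusted p = 0.000967). A pair of imprinted neighbours also fell, the growth factor gene IGF2 by 1.01 (adjusted p = 0.0225) and the noncoding RNA H19 by 0.96 (adjusted p = 0.0168). For H19 the 3 CD44 Low libraries had 196, 256 and 234 CPM and the parental ones 469, 469 and 395 CPM, with no overlap. IGF2 overlaps INS-IGF2 and IGF2-AS on the annotation, so its reads may be shared. HMGA1, IGF2BP2, IGF2 and H19 were picked after their values were seen.

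The other 7 leading genes that fell, for which no overlap was likewise a condition, were of varied roles. MMP13, collagenase 3, fell by 1.77 (edgeR adjusted p = 0.0149) and PTHLH, parathyroid hormone-related protein, fell by 1.47 (adjusted p = 0.00419). SCARA3, a scavenger receptor family member, fell by 1.34. CYBRD1, a plasma membrane ferric reductase, fell by 1.31, and CPVL, a carboxypeptidase-like protein, fell by 1.28. BCYRN1, a small noncoding RNA made by RNA polymerase III, fell by 1.26, and LIPG, endothelial lipase, fell by 1.22 (adjusted p = 0.012). In CD44 High and CD44v6 the levels of MMP13 were 12 to 30.6 and 17.7 to 32.1 CPM, beside 7.86 to 11.4 CPM in parental cells and 2.21 to 3.43 CPM in CD44 Low.

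The leading rises, picked by the same rule, included enzymes, a tight junction scaffold and an adhesion glycoprotein. DHRS2, a mitochondrial and nuclear short-chain dehydrogenase, stood at 49.7, 52.4 and 38.5 CPM in CD44 Low and at 10.9, 11.6 and 10.9 CPM in parental cells. It was 4.21-fold higher (log2 fold change 2.07, SE 0.14, edgeR adjusted p = 3.23e-05). In CD44 High it was at 4.93, 5.35 and 5.51 CPM and in CD44v6 at 5.95, 4.23 and 4.59 CPM, all below the parental libraries. ALPG, the germ cell alkaline phosphatase, stood at 94.4, 71.6 and 47.4 CPM against 13.6, 17.6 and 16 CPM (log2 fold change 2.17, SE 0.37, adjusted p = 0.00854). ALPG has a near-identical copy in ALPP, so the split of reads between them is uncertain.

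TJP3, the tight junction scaffold ZO-3, stood at 46.9, 37.8 and 23.5 CPM against 10.1, 13.3 and 14.6 CPM (log2 fold change 1.51, SE 0.21, edgeR adjusted p = 0.00397). HPGD, which inactivates prostaglandins, was at 133, 105 and 85.2 CPM against 38.5, 43 and 54.5 CPM. It rose by 1.25 (SE 0.18, adjusted p = 0.00396). In both genes CD44 Low replicate 3 was the closest to the parental range, without reaching it. The adhesion glycoprotein CEACAM6 stood at 304, 270 and 260 CPM against 120, 123 and 142 CPM (log2 fold change 1.12, SE 0.21, adjusted p = 0.0159). It was called in 2 of the 6 fits with a library left out, those without CD44 Low replicate 3 and parental replicate 3. The others included the kinase gene MAP3K8 (1.36, adjusted p = 0.0202), the transcriptional corepressor TLE6 (1.31, adjusted p = 0.022) and the small MAF factor MAFF (1.15, adjusted p = 0.0207). Also picked were the amino acid carrier SLC6A14 (1.10, adjusted p = 0.0374) and the nuclear factor CSRNP1 (1.03, adjusted p = 0.00722). Against the same parental libraries, CSRNP1 rose by 1.31 in CD44 High (edgeR adjusted p = 0.00425) and by 1.32 in CD44v6 (adjusted p = 0.00379). MAFF had log2 fold changes of 0.86 and 0.97 there and MAP3K8 of 0.87 and 0.84, none called. TLE6 and SLC6A14 were lower than in parental cells in both lines, without a call.

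**Figure D1:**
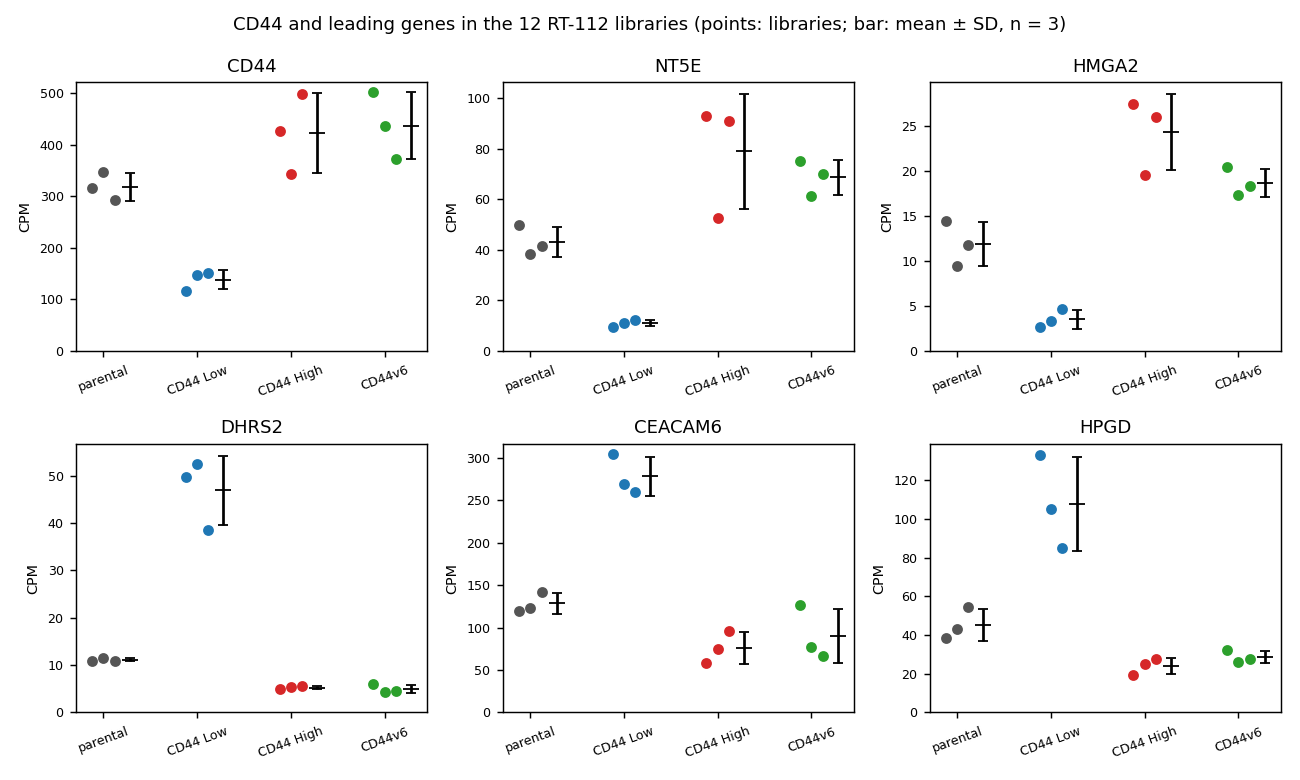
Level in CPM (vertical axis, linear from 0) of CD44 and 5 leading genes in the 12 RT-112 libraries, with each point a library and the bar the mean ± SD (n = 3). The CD44 Low points lie below the parental points for CD44, NT5E and HMGA2 and above them for DHRS2, CEACAM6 and HPGD. No overlap was a condition for choosing the 5 leading genes, and CD44 showed none either.

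**Figure D2:**
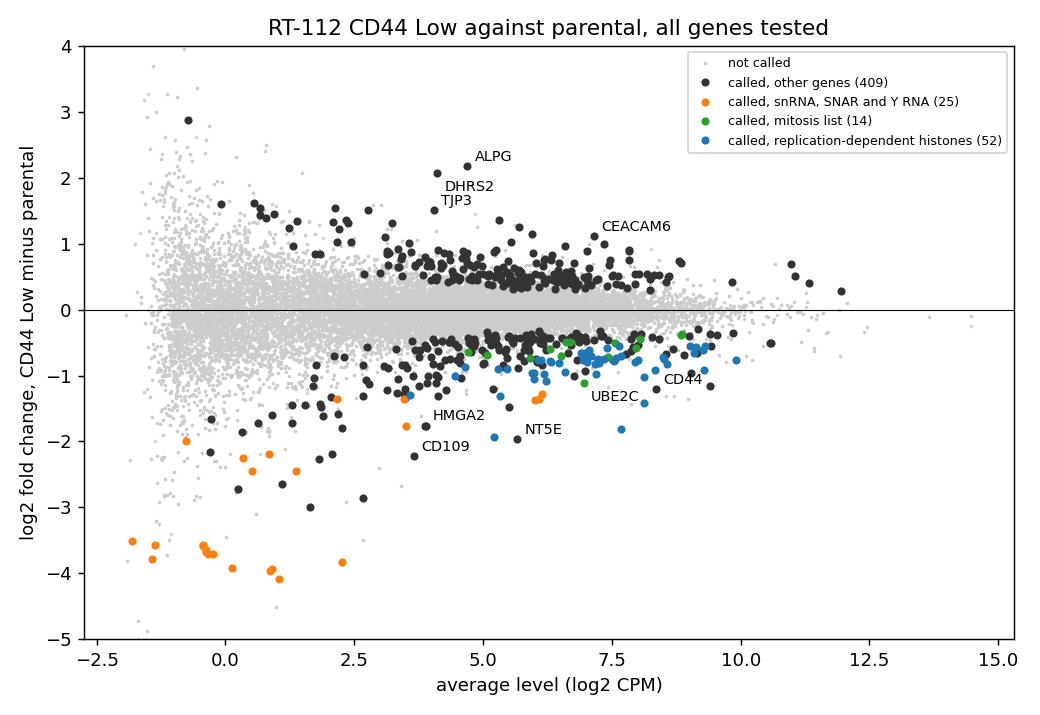
Log2 fold change of CD44 Low minus parental (vertical axis) against average level in log2 CPM (horizontal axis) for all genes tested, with called genes in colour by list and 43 genes beyond the plotted range not shown. The 52 called replication-dependent histone genes and the 14 called mitosis genes all lie below 0, and many of the called small RNA genes lie below the other called genes.

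Replication-dependent histone genes formed the largest group that moved 1 way. Of the 65 members counted, 58 were tested. Of these, 52 were called lower and none higher, beside 1.87% of all genes tested that were called lower. For all 58 the 3 CD44 Low libraries lay below the 3 parental libraries, beside 13.9% of all genes. The median fold change was -0.76, against -0.01 over all genes. Leaving out CD44 Low replicate 2 left 33 called, and leaving out any of the other 5 libraries left 37 to 45. All classes took part: 4 of 4 linker H1 genes, 13 of 15 H2A, 15 of 16 H2B, 10 of 12 H3 and 10 of 11 H4 genes were called lower. The same 5 classes had medians of -0.72 to -0.90.

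Their summed level was 9386, 8016 and 7959 CPM in the 3 CD44 Low libraries and 13971, 13872 and 14784 CPM in the 3 parental libraries. The sum was 14459, 13580 and 10914 CPM in CD44 High and 10269, 11751 and 13749 CPM in CD44v6, so each CD44 Low library lay below the other 9 RT-112 libraries. Against parental cells, no histone gene of the list was called lower in CD44 High, where 0.262% of all genes were, or in CD44v6, where 0.326% were. The largest changes among genes were in H2BC3, an H2B gene, at 10.6, 10.1 and 7.45 CPM against 31.8, 37.7 and 38.4 CPM (log2 fold change -1.94, SE 0.30, edgeR adjusted p = 0.00525), and in H3C3. The latter is an H3 gene that stood at 65.7, 58 and 59.8 CPM against 209, 213 and 223 CPM. H4C13, an H4 gene, was at 114, 134 and 121 CPM against 294, 353 and 341 CPM, and H2BC14 fell by 1.31. Members at high level that missed the threshold were H2BC5 (-0.55, adjusted p = 0.0594) and H2AC17 (-0.55, adjusted p = 0.079). Histone genes are near-identical copies, so the level of 1 gene is uncertain, while the sum over the genes is less so.

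The upstream sequences of 3 of these histone genes are shown because their family rests on short shared promoter elements. Each run is the 150 bases before the transcription start, 5' to 3' on the gene's strand, from the RefSeq promoter table of build GRCh38.p14, which differs from the build GRCh37 named for the counts. Capitals mark CCAAT (the CCAAT box), TATAAA (the TATA box) and TTTGAA (the cell-cycle homology region), or their reverse complements. H3C3 is from chr6:26045234-26045383, plus strand, H2BC3 from chr6:26043714-26043863, minus strand and H4C13 from chr6:27873535-27873684, minus strand.
H3C3: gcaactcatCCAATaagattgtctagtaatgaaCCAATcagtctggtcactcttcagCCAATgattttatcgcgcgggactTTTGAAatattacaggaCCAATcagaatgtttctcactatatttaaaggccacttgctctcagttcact
H2BC3: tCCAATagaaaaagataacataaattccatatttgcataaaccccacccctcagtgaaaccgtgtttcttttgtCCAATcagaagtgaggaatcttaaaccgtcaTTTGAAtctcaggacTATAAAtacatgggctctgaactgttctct
H4C13: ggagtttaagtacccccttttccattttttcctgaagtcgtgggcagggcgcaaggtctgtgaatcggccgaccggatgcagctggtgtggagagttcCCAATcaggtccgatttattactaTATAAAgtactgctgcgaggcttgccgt
H3C3 has 4 CCAAT letters in this stretch, H2BC3 has 2 and H4C13 has 1. Over the 250 bases before the start, searched on both strands, CCAAT was in 85.2% of the 54 tested histone promoters in the table and in 33% of all 27305 promoters. TATAAA was in 68.5% of the histone promoters and in 11.1% of all, and TTTGAA in 31.5% and 13.6%. Among the 10799 promoters of genes tested in RT-112, CCAAT was in 35.8%, TATAAA in 5.62% and TTTGAA in 8.57%. These letter matches describe the windows and are no sites.

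Variant and processing genes of the histone system are listed apart from these, from lists added after the histone counts were seen. Of 11 replication-independent histone genes, which have polyadenylated mRNAs, 1 was called lower, beside 1.87% of all genes tested. It was H2AX, a DNA damage variant that has both kinds of mRNA, which fell by 0.46 (edgeR adjusted p = 0.00722). H3-3B, which encodes the variant H3.3, had a log2 fold change of 0.09 (adjusted p = 0.664). The median of the 11 was 0.06. Of 13 genes that process histone mRNA none was called, and their median was -0.07.

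Among mitosis genes all calls were in the same direction. Of 38 tested, 14 were called lower, beside 1.87% of all genes tested, and none higher. Fold changes were below 0 for 37 of the 38, and the median was -0.39, against -0.01 over all genes. Leaving out a library left 5 to 12 called: 8 without CD44 Low replicate 1, 5 without CD44 Low replicate 2, 12 without CD44 Low replicate 3, 8 without parental replicate 1, and 6 without parental replicate 2 or 3. UBE2C, the E2 enzyme of the anaphase-promoting complex, stood at 60.4, 49.6 and 55 CPM against 122, 114 and 119 CPM. It was 2.16-fold lower (log2 fold change -1.11, SE 0.09, edgeR adjusted p = 4.39e-05).

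The phosphatase gene CDC25B fell by 0.73 (edgeR adjusted p = 0.0018), the cyclin-dependent kinase gene CDK1 by 0.71 (adjusted p = 0.0239), and CDCA8, the borealin of the chromosomal passenger complex, by 0.70 (adjusted p = 0.00131). The polo-like kinase gene PLK1, shown for its promoter, fell by 0.59 (adjusted p = 0.00525) and CDC20, an activator of the anaphase-promoting complex, by 0.49 (adjusted p = 0.0377). Proliferation markers at high level were not called. MKI67 stood at 546, 472 and 753 CPM against 908, 1055 and 889.8 CPM (adjusted p = 0.0948), with no overlap. TOP2A had a log2 fold change of -0.71 (adjusted p = 0.156) and the kinetochore gene CENPF one of -0.19 (adjusted p = 0.86). For both, the CD44 Low libraries also lay below the parental ones, as they did for 13.9% of all genes tested. In CD44 High the values of these markers varied widely, and TOP2A ran from 692 to 1835 CPM there. Those libraries are part of the shared estimate of spread, and their part in the missing calls was not tested.

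The promoters of CDC20 (chr1:43358831-43358980, plus strand) and PLK1 (chr16:23678739-23678888, plus strand) are shown because both hold the TTTGAA letters for which late cell-cycle promoters are known, with the same build, length and capitals as above.
CDC20: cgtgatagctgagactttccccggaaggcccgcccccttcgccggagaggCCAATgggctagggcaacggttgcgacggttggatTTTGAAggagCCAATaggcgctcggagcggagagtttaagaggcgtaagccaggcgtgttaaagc
PLK1: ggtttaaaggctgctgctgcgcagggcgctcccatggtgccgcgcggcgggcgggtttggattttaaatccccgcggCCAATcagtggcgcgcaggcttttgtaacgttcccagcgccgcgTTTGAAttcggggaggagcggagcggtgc
In the 250 bases before the start TTTGAA or its reverse complement was in 53.1% of the 32 mitosis promoters in the table. It was in 13.6% of all promoters, 8.57% of those of tested genes, 31.5% of histone promoters and 2.78% of 36 DNA replication promoters. Of the 14 called genes 10 had a promoter in the table, of which 40% held it.

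Of 43 DNA replication genes tested, 2 were called lower, beside 1.87% of all genes tested, and none higher. They were the GINS complex gene GINS1 (-0.45, edgeR adjusted p = 0.0336) and the polymerase alpha subunit gene POLA2 (-0.41, adjusted p = 0.0257). Fold changes were below 0 for 35 of the 43, and the median was -0.16. For 14 of the 43 the CD44 Low libraries lay below the parental ones without overlap, beside 13.9% of all genes tested. MCM3, a subunit of the replicative helicase, had a log2 fold change of -0.15 (adjusted p = 0.676). Of 20 CDK inhibitor and p53 target genes none was called: CDKN1A, which encodes p21, had 144, 105 and 103 CPM against 82.3, 83.2 and 86.6 CPM (adjusted p = 0.151). Fold changes were above 0 for 14 of the 20 and below 0 for 6, with a median of 0.21. For 9 the CD44 Low libraries lay above the parental ones without overlap, beside 13.5% of all genes tested. Among 18 tubulin genes, a list added after the changes were seen, 4 were called lower, beside 1.87% of all genes tested. They included TUBB, at 1051, 1057 and 1211 CPM against 1657, 1584 and 1467 CPM (log2 fold change -0.50, adjusted p = 0.0177).

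**Figure D3:**
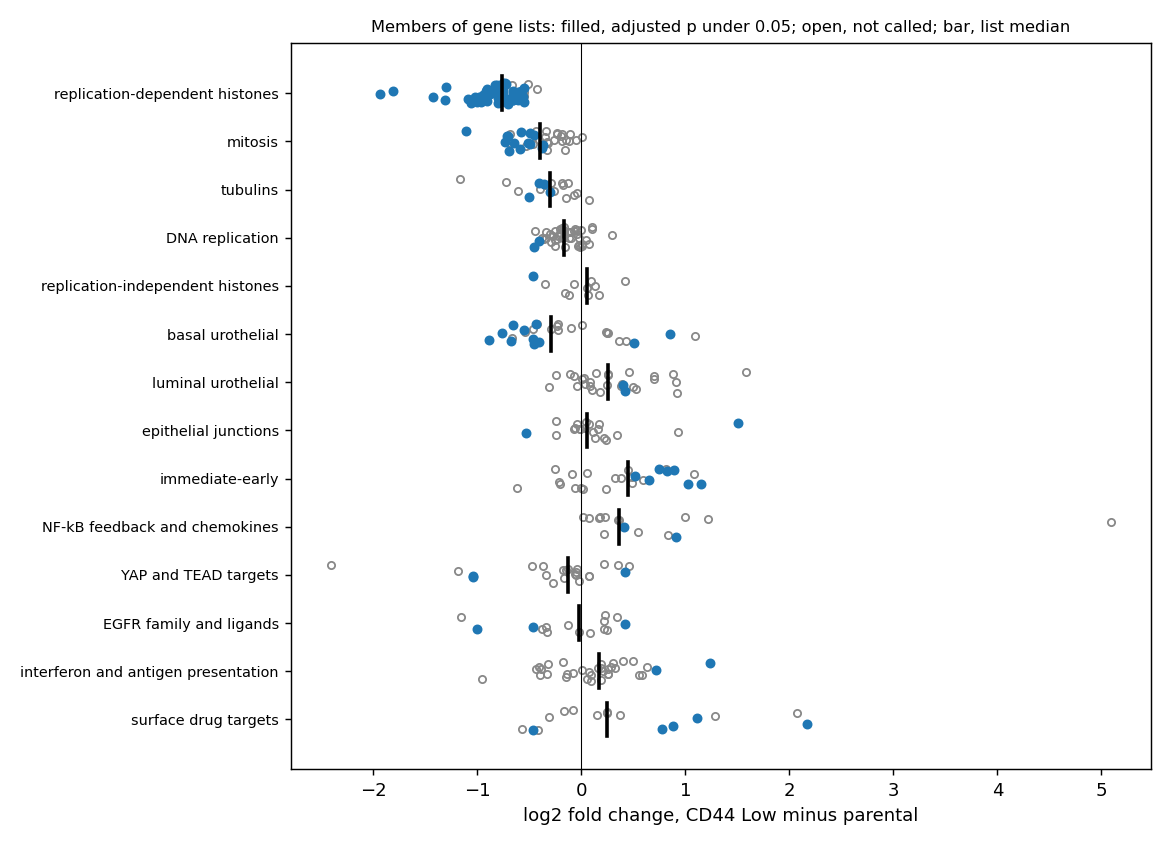
Log2 fold change of CD44 Low minus parental (horizontal axis) of each tested member of 14 gene lists (rows), filled where called and open where not, with a bar at each list's median. The histone members lie below 0 without exception, mitosis members below 0 with 1 exception, and the basal and luminal lists spread to both sides of 0.

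Called basal urothelial genes were mostly lower, and the luminal genes lay mostly above 0. Of 27 basal genes 9 were called lower and 2 higher, beside 1.87% and 1.33% of all genes tested, with a median of -0.29. Of 29 luminal genes 2 were called higher and none lower, 24 of 29 fold changes were above 0 and the median was 0.26. The summed basal level overlapped between the groups, at 6124, 6547 and 5858 CPM in CD44 Low against 6217, 6354 and 5642 CPM in parental cells. The luminal sums had means of 18609 and 15327 CPM. Basal calls depend on single libraries: 3 were called lower without CD44 Low replicate 1, parental replicate 1 or parental replicate 2, and 4 without CD44 Low replicate 2. The 2 luminal calls were lost when any library but CD44 Low replicate 3 was left out, with the replicate block and without the filter on low counts.

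TP63, the transcription factor of basal epithelium, stood at 73.5, 84.6 and 103 CPM in CD44 Low against 138, 139 and 139 CPM in parental cells. It fell by 0.67 on the log2 scale (SE 0.10, edgeR adjusted p = 0.00525). KRT5, the main basal keratin, was at 321, 368 and 387 CPM against 611, 597 and 493 CPM (log2 fold change -0.66, SE 0.12, adjusted p = 0.0106). The groups did not overlap for either gene. KRT6A fell by 0.76 (adjusted p = 0.0267) and KRT6C by 0.89 (adjusted p = 0.0222), and these 2 paralogues can exchange reads. EGFR, the epidermal growth factor receptor, fell by 0.47 (adjusted p = 0.0486) and ITGA6, the hemidesmosome integrin chain, by 0.55 (adjusted p = 0.00603).

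KRT16 and KRT17, keratins of activated and wounded epithelium, went the other way: KRT16 rose by 0.85 (edgeR adjusted p = 0.00722) and KRT17 by 0.51 (adjusted p = 0.0496). KRT16 and KRT17 also share similar copies and pseudogenes. KRT14 had a log2 fold change of 0.43 (adjusted p = 0.587), LAMA3, a laminin chain of the basement membrane, one of -0.23 (adjusted p = 0.0738), and IVL, the cornified envelope protein involucrin, one of 0.37 (adjusted p = 0.439). Over the whole keratin family, listed after the changes were seen, 6 of 29 were called higher and 3 lower. Over all genes tested these shares were 1.33% and 1.87%. KRT4 and KRT13, a pair of stratified mucosal keratins, were at 742, 873 and 669 against 428, 489 and 450 CPM and at 5257, 5179 and 4786 against 4298, 4158 and 4016 CPM. KRT4 rose by 0.74 (adjusted p = 0.012) and KRT13 by 0.29 (adjusted p = 0.0305).

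The luminal genes that rose were ERBB3, a receptor of the EGFR family, by 0.42 (edgeR adjusted p = 0.0377), and KRT19, a simple-epithelium keratin, by 0.40 (adjusted p = 0.0431). KRT20, the umbrella-cell keratin, stood at 12.2, 23.5 and 21.2 CPM against 6.25, 6.12 and 6.62 CPM. The groups did not overlap and the log2 fold change was 1.58 (SE 0.49), with an adjusted p of 0.105. UPK1B, a uroplakin, was at 663, 644 and 705 CPM against 491, 483 and 483 CPM (adjusted p = 0.0693), and UPK2 was at 2.59 to 5.29 CPM against 3.59 to 3.89 CPM (log2 fold change -0.07, adjusted p = 0.929). The luminal transcription factors were not called: PPARG had a log2 fold change of 0.08 (adjusted p = 0.636), FOXA1 0.14 (adjusted p = 0.531) and GATA3 0.02 (adjusted p = 0.964). KRT7 and KRT8 had 0.10 and 0.26.

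Epithelial junction genes gave 1 call in each direction out of 20, beside 1.33% of all genes tested called higher and 1.87% lower. They were TJP3 as above and CLDN1, a tight junction claudin that fell by 0.53 (edgeR adjusted p = 0.0486). CDH1, which encodes E-cadherin, had 364, 340 and 343 CPM against 299, 325 and 332 CPM (adjusted p = 0.367). EPCAM had a log2 fold change of -0.24 (adjusted p = 0.415) and the desmosome gene DSP 0.07 (adjusted p = 0.744). None of 11 tested mesenchymal genes was called, and the filament gene VIM stayed near its floor, at 0.92 to 2.54 CPM in CD44 Low and 1.56 to 2.36 CPM in parental cells.

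Surface proteins that are drug targets in bladder or other carcinomas included 4 of 16 that rose and 1 that fell, beside 1.33% and 1.87% of all genes tested. NECTIN4, the adhesion protein bound by enfortumab vedotin, stood at 66.4, 57.4 and 47.4 CPM against 30.6, 34.1 and 28.2 CPM (log2 fold change 0.88, SE 0.16, edgeR adjusted p = 0.0133). CEACAM5 rose by 0.78 (adjusted p = 0.0493), and ALPG and CEACAM6 are given above. CEACAM5 and CEACAM6 are close paralogues, and 2 of 4 tested genes of that family were called. ERBB2, a receptor tyrosine kinase, had a log2 fold change of 0.24 (edgeR adjusted p = 0.146) and FGFR3 one of -0.31 (adjusted p = 0.054). With a library left out 0 to 4 of these genes were called higher: none without parental replicate 1, 1 without CD44 Low replicate 1 or 2, and 2 without parental replicate 2 or 3.

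Calls in the EGFR family, ERK feedback, YAP target and matrix protease lists stand beside 1.87% lower and 1.33% higher over all genes tested. Of 15 tested genes of the EGFR family 2 were called lower and 1 higher. In the EGFR family AREG, the ligand amphiregulin, stood at 4.93, 7.21 and 6.96 CPM against 12.5, 12.4 and 13.1 CPM and fell by 0.997 (edgeR adjusted p = 0.0188). Of 18 genes of the ERK feedback list 2 fell, and the list median was -0.04. They were the ERK phosphatase gene DUSP6 (-0.43, adjusted p = 0.0416) and the chromatin protein HMGA2, a list member that is no feedback regulator itself. Of 23 YAP and TEAD targets 2 fell and 1 rose. For 10 of the 23 the CD44 Low libraries lay below the parental ones without overlap, beside 13.9% of all genes tested. For 3 they lay above, beside 13.5%. ANKRD1 fell by 1.04 (adjusted p = 0.0145), from 16.8, 23.6 and 23.6 CPM to 13.3, 10 and 7.66 CPM, and the kinase gene NUAK2 by 1.04 (adjusted p = 0.0429), while IGFBP3 rose by 0.42 (adjusted p = 0.0413). PLAT, the tissue plasminogen activator, fell by 0.83 (adjusted p = 0.0168), 1 of 2 matrix protease genes of 22 called, the other being MMP13.

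Immediate-early genes respond within minutes to growth factors, stress or handling. Of 25 tested, 7 were called higher in CD44 Low, beside 1.33% of all genes tested, none lower and 18 were not called. Fold changes were above 0 for 18 and below 0 for 7, and the median was 0.45. The AP-1 subunit gene JUN had a log2 fold change of 0.02 (edgeR adjusted p = 0.977) and the stress factor gene ATF3 one of 0.49 (adjusted p = 0.17). KLF4, a pluripotency and differentiation factor, stood at 45.7, 51.3 and 50 CPM against 35.3, 24.3 and 28.3 CPM. IER5 was at 385, 311 and 233 CPM against 181, 166 and 153 CPM and rose by 0.90 (edgeR adjusted p = 0.0149). The phosphatase gene DUSP1 rose by 0.66 (adjusted p = 0.00989), the AP-1 subunit gene FOS by 0.52 (adjusted p = 0.0256), and KLF10, MAFF and CSRNP1 rose as well. In CD44 High the list median against the same parental libraries was 0.46, with 7 genes called higher, beside 0.249% of all genes. In CD44v6 it was 0.56, with 8 genes called higher, beside 0.288% of all genes. Only 1 gene was called without parental replicate 2, 3 without CD44 Low replicate 2 or parental replicate 3, and 4 without CD44 Low replicate 1.

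In NF-kB feedback 2 of 15 were called higher, beside 1.33% of all genes tested. All 15 fold changes were above 0, with a median of 0.37. Against the same parental libraries the list median was 0.506 in CD44 High and 0.511 in CD44v6, with 1 gene called higher in each. IL1B, the cytokine interleukin-1 beta, rose by 0.91 (edgeR adjusted p = 0.0415) and TNFAIP2 by 0.41 (adjusted p = 0.0403), while NFKBIA, the inhibitor IkB alpha, had 208, 133 and 92.3 CPM against 80.8, 63.3 and 73.2 CPM (adjusted p = 0.0769). In the interferon list 2 of 34 rose, beside the same 1.33%: BST2 by 0.72 (adjusted p = 0.0374) and IFI44 by 1.24 (adjusted p = 0.0496). BAMBI, a pseudoreceptor that dampens TGF-beta signals, was the 1 call of 22 targets of that pathway and rose by 0.66 (adjusted p = 0.0434).

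Metabolic, stress and drug-handling lists gave 0 to 2 calls each, beside 3.2% of all genes called in either direction. NQO1 rose by 0.54 (edgeR adjusted p = 0.0244) and AKR1C3 by 0.46 (adjusted p = 0.0325), 2 of 25 NRF2 and glutathione genes. ABCG2, the drug efflux pump, rose by 0.67 (adjusted p = 0.0199), the 1 call among 25 drug transport genes. ALDH3A1, an aldehyde dehydrogenase, stood at 70.5, 69.3 and 60.8 CPM against 34.5, 41.8 and 31.3 CPM (adjusted p = 0.0294), and it and KLF4 were the 2 calls of 13 stem-like genes. FADS1, a fatty acid desaturase, fell by 1.16 (adjusted p = 0.0229); it overlaps FADS2 on the other strand. ENO1, the glycolytic enolase, fell by 0.51 (adjusted p = 0.0145), the 1 call of 29 glycolysis and hypoxia genes. None of 24 cholesterol genes and none of 29 unfolded protein genes was called.

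Among short noncoding RNAs the SNAR family was called lower throughout and the other lists in part. All 16 tested SNAR genes, a primate family of short noncoding RNAs made by RNA polymerase III, were called lower, beside 1.87% of all genes tested. SNAR-A1 stood at 0.335, 0.308 and 0.54 CPM against 7.92, 6.12 and 6.11 CPM (log2 fold change -4.09, edgeR adjusted p = 3.34e-05). The SNAR sum was 4.39, 4.09 and 6.96 CPM in CD44 Low and 68.2, 59.5 and 55.1 CPM in parental cells. In CD44 High and CD44v6, set against the same parental libraries, the 16 SNAR genes were also called lower. With a minimum mean of 50 counts 1 SNAR gene was left to be called. SNAR genes are near-identical copies and their reads cannot be assigned with certainty.

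Of 30 spliceosomal snRNA genes 7 were called lower, beside 1.87% of all genes tested. The summed level of the list was 217, 213 and 400 CPM in CD44 Low, 746, 644 and 646 CPM in parental cells and 204 to 249 CPM in CD44 High. In CD44 High and CD44v6 6 and 8 of the 30 genes were called lower against the same controls, beside 0.262% and 0.326% of all genes. CD44 Low replicate 3 was the highest of its group in both sums. The snRNA calls fell to 0 without CD44 Low replicate 1, CD44 Low replicate 2 or parental replicate 1, to 1 without parental replicate 2 and to 2 without parental replicate 3, and rose to 12 without CD44 Low replicate 3. RNU2-6P fell by 1.77 (edgeR adjusted p = 0.0212), RNU1-2 by 1.37 (adjusted p = 0.0434) and the Y RNA RNY3 by 2.44 (adjusted p = 0.00808). WDR74, which fell by 1.17 (adjusted p = 0.0284), overlaps the snRNA gene RNU2-2P on the same strand, so its reads can be shared.

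Of 156 snoRNA genes 5 were called lower, beside 1.87% of all genes tested. SNORD3A had 250, 268 and 491 CPM against 1123, 778 and 596 CPM (edgeR adjusted p = 0.076). None of 4 7SL and 7SK genes was called, RN7SL1 having a log2 fold change of -0.09. The snRNA, SNAR, Y and snoRNA genes together took 0.204% to 0.36% of counts in CD44 Low and 0.412% to 0.678% in parental libraries. The 7SL and 7SK genes took another 6.18% to 6.54% and 6.67% to 7.52%. Scaling without any of these short RNAs left 475 genes called and 52 histone genes lower. Their part in the histone and mitosis results, beyond that scaling, was not tested.

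**Figure D4:**
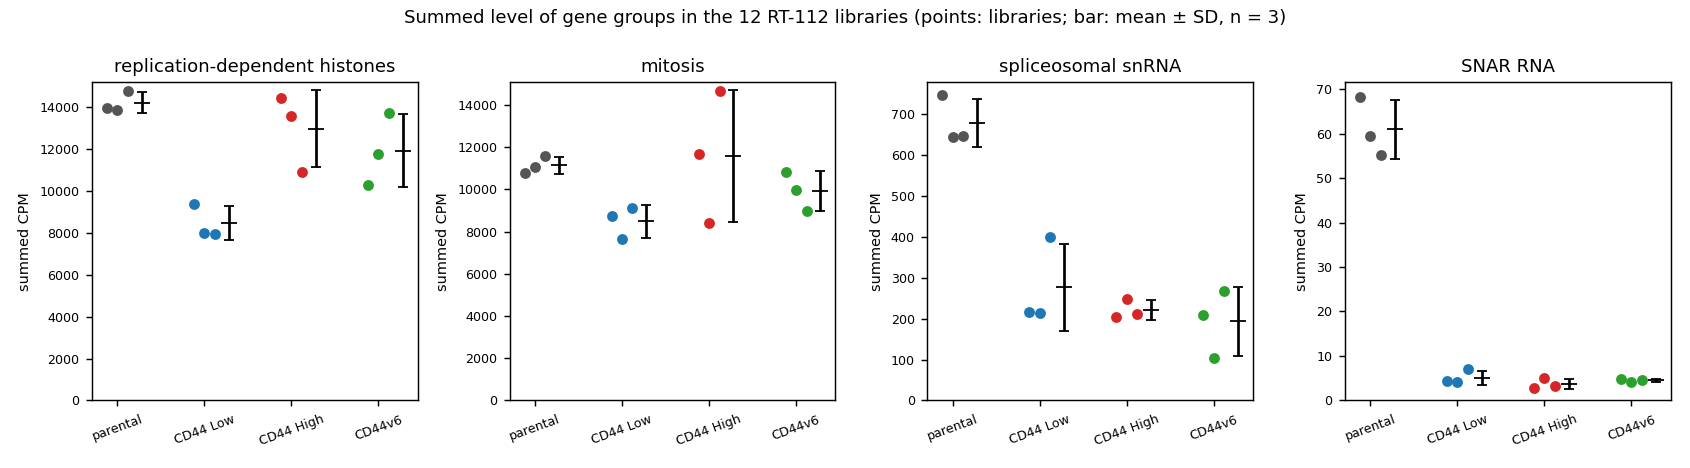
Summed CPM (vertical axes, linear from 0) of replication-dependent histones, mitosis genes, spliceosomal snRNAs and SNAR RNAs in the 12 RT-112 libraries, points being libraries and bars mean ± SD (n = 3). The histone sum of CD44 Low lies below all other groups, whereas the snRNA and SNAR sums of CD44 Low, CD44 High and CD44v6 all lie below the parental libraries.

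Markers of other cell types were near 0. Leukocyte markers summed to 0.971 to 1.41 CPM in CD44 Low and 0 to 0.506 CPM in parental cells, and endothelial markers to 2.29 to 2.76 and 1.52 to 2.08 CPM. The fibroblast list summed to 213 to 266 against 168 to 198 CPM, of which LUM alone gave 210 to 261 and 165 to 194 CPM (log2 fold change 0.37, edgeR adjusted p = 0.275). Of 9 stress and RNA quality genes none was called and 8 had fold changes below 0, among them HSPA8 (-0.34, adjusted p = 0.0578) and the nuclear RNA MALAT1 (-0.71, adjusted p = 0.182). In bulk RNA, fewer cells in a state and less RNA per cell cannot be told apart.

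Fold changes were also read along the chromosomes. Protein-coding genes whose average level was at least 3 in log2 CPM, histones left out, were placed in RefSeq order of GRCh38.p14 in 173 windows of 50 neighbours, the last window of a chromosome also taking the remaining genes and holding up to 88, a view chosen after the calls were seen. The 4 windows with the lowest medians were the first 4 of the short arm of chromosome 1, at -0.29, -0.31, -0.18 and -0.19. Of the 150 genes in the first 3 of these, 133 had fold changes below 0, 9 were called lower and none higher, beside 1.87% of all genes called lower, and the median was -0.26. All 3 CD44 Low libraries were negative there, at medians of -0.17 to -0.41 against the parental mean. CD44 High and CD44v6 libraries were positive in these windows, from 0.01 to 0.46. The 3 called genes with the largest falls were SRM, the polyamine enzyme spermidine synthase, at 8.24, 9.71 and 9.33 CPM against 18.6, 15.8 and 14.3 CPM (-0.83, edgeR adjusted p = 0.0282), ENO1 (-0.51), and UBE4B, a ubiquitin ligase (-0.50, adjusted p = 0.0341). The highest 2 window medians, 0.22 and 0.15, lay on the long arm of the same chromosome, the latter in its last window, of 69 genes. No test was made of these windows, and no DNA copy number was measured.

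**Figure D5:**
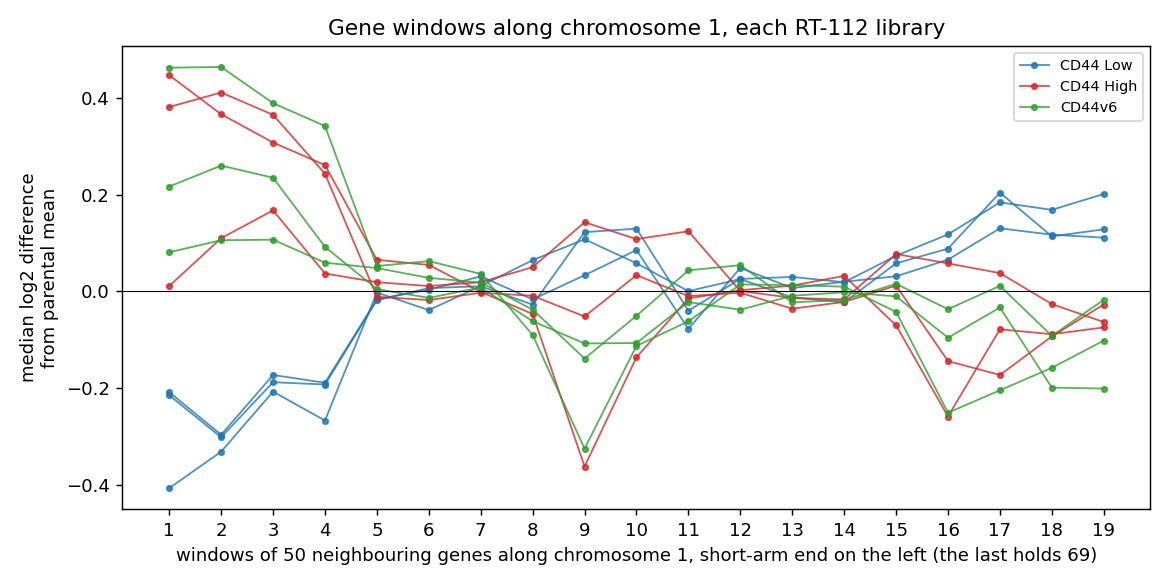
Median log2 difference from the parental mean (vertical axis) of windows of 50 neighbouring genes (69 in the last) along chromosome 1 (horizontal axis, short-arm end on the left) in each CD44 Low, CD44 High and CD44v6 library of RT-112. In the first 4 windows all CD44 Low libraries lie below 0 and all CD44 High and CD44v6 libraries above it.

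The same comparison in J82 shares no library with this one, so an interaction term over all 24 libraries compared the 2 lines. It was called for 185 of 17438 genes (1.06%), 132 with the higher change in RT-112 and 53 with the lower. CD44 fell by 1.20 in RT-112 and by 0.68 in J82, with no difference called (adjusted p = 0.345). For histones none of 58 genes differed: the median in J82 was -0.91, and 42 of the list were called lower in both lines. In J82 3.08% of all genes were called lower, and 123 of the 14237 genes tested in both lines were called in the same direction in both. Mitosis medians were -0.39 and -0.36, with 14 genes called lower in each line and 5 of them in both. CDC25B alone differed, by -1.09 (edgeR adjusted p = 0.0156). A change missed by this test is not shown to be alike in both lines.

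The difference between the lines was called for 4 of 29 luminal, 2 of 27 basal and 1 of 20 epithelial junction genes, beside 1.06% of all genes. KRT19 rose by 0.40 in RT-112 and fell by 0.45 in J82, a difference of 0.88 (edgeR adjusted p = 0.00465). ERBB3 rose by 0.42 and fell by 0.54, a difference of 0.99 (adjusted p = 0.00225). KRT7 (1.07, adjusted p = 0.00225) and PPARG (0.85, adjusted p = 0.00224) also differed, and both fell in J82. Among the basal genes the integrin chain gene ITGB4 differed by -1.81 (adjusted p = 0.00352) and rose by 1.39 in J82. Its J82 level was low, with means of 2.75 CPM in parental and 7.23 CPM in CD44 Low cells, scaled over all 24 libraries. The junction gene was CDH1, with a difference of -1.005 (adjusted p = 0.00131). HPGD differed by 2.07 (adjusted p = 0.0108), ABCG2 by 1.28 (adjusted p = 0.0164) and H19 by -1.47 (adjusted p = 0.0171). On the same scaling HPGD was near 0 in J82, at 0.648 to 0.892 CPM in CD44 Low and 0.943 to 1.48 CPM in parental cells. Of 26 immediate-early genes 5 differed, FOSB, FOS, RHOB, JUNB and JUND, all with the higher change in J82; JUNB overlaps HOOK2 on the other strand. The median difference over the 26 was -1.07 and the J82 median 1.29.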

How the data were processed

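The authors deposited 1 table of raw counts for 35993 gene symbols in 24 libraries, taken from the file header and the labels. HISAT2, StringTie and GRCh37 are named per the submitters' processing notes, which give no version or role. The annotation, the counting program, strand use and multimapping rules are not given in the sources used here. Column names matched sample titles, and 0 columns of values were left unused.

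The test was edgeR 4.0.16 in R 4.3.3 (filterByExpr, TMM scaling, glmQLFit and glmQLFTest, two-sided, group as the only term) on the 12 RT-112 libraries. The difference between lines was a contrast over all 24 libraries. DESeq2 1.42.0 was an alternative, beside other scalings, filters, sets of libraries, a replicate block and leaving out each library. The fit was tested on simulated data. Figures used Python 3.11.15 and matplotlib 3.10.9.

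The members and gene lists were chosen with earlier results of these data known. Genes were named from CD44 and NT5E, the 10 largest called changes in each direction at an average log2 CPM of at least 3 without overlap and outside the histone and short RNA lists, up to 4 called members per list and direction, the 2 highest members not called, and markers fixed by name. For the difference between lines, 5 called genes in each direction were added. Of the genes these rules name, 2 are not reported here. UPK1B, KRT4, KRT13, TUBB, PLK1, CDC20, DUSP1, FOS, HMGA1, IGF2BP2, H19, IGF2, WDR74, SRM, UBE4B, ITGB4, RHOB, JUNB and JUND were chosen after their values were seen.

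Replicate libraries differed by more than sampling noise (chi-square per degree of freedom 7.07 to 19.1 in the 2 groups). Same-numbered libraries did not deviate together (correlations -0.107, -0.005 and -0.085), so the numbers were not taken as pairs.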

Additional observations from a re-analysis of the deposited data

Results flagged for a closer look

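The interaction test between the lines called 185 genes, each with a CD44 Low against parental change that differed between RT-112 and J82. All values below are RT-112 minus J82 on the log2 scale, and CPM values here are scaled over all 24 libraries, so they differ slightly from those over the RT-112 libraries alone. Among epithelial and cell-cycle genes the differences were 0.88 for KRT19, 1.07 for KRT7, 0.99 for ERBB3, 0.85 for PPARG, -1.81 for ITGB4, -1.005 for CDH1 and -1.09 for CDC25B. CDH1 rose in J82 from 2.54 to 5.71 CPM and stood at 317 and 356 CPM in RT-112 parental and CD44 Low cells.

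Cyclin D1, encoded by CCND1, differed by 0.98, with 363 against 382 CPM in RT-112 and 336 against 695 CPM in J82. TGFBI, a TGF-beta-induced matrix protein, differed by 1.37, with a fall in J82 from 74.3 to 26.4 CPM. NUAK2 differed by -1.79, CYBRD1 by -1.47, CPVL by -1.41, H19 by -1.47, HPGD by 2.07 and ABCG2 by 1.28. HPGD was near 0 in J82, with means of 0.742 CPM in CD44 Low and 1.28 CPM in parental cells. The AP-1 subunit genes FOSB and FOS differed by -2.58 and -1.81: FOSB was at 59.9 and 72.3 CPM in RT-112 parental and CD44 Low cells and at 14.02 and 101.5 CPM in those of J82. Further immediate-early genes differed by -1.20 (RHOB), -1.20 (JUNB) and -0.70 (JUND).

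In the genes below, among those with the largest fitted differences, 1 line was near 0, so these values depend on the prior count and are no bound. They were 6.38 for DOCK8 (J82 at 0 to 0.681 CPM), 2.98 for SPOCD1, 2.52 for SLC45A3 and 2.49 for AFAP1L2, all low in J82, and -7.27 for PAPPA, -5.89 for SLAIN1 and -3.37 for CPLANE1, all low in RT-112. EPHB6 differed by -2.88 and was at 0.206 CPM in J82 parental cells. The differences of DOCK8, SPOCD1 and EPHB6 were not called without the filter on low counts.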

How the results depend on the processing

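The number of genes called depends on the model more than on the scaling. Against 500 called (208 higher, 292 lower), the DESeq2 Wald test called 985 (462 and 523), a fit on the 6 compared libraries alone 1126 (558 and 568), and a fit without the filter on low counts 136 higher. Leaving out 1 library gave 142 to 798 called, 30 to 306 higher and 112 to 492 lower: 158 without CD44 Low replicate 1, 175 without CD44 Low replicate 2, 798 without CD44 Low replicate 3, and 190, 142 and 217 without parental replicates 1, 2 and 3. CD44 kept its direction and call in all alternatives run, at -1.09 to -1.27 with a library left out.

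The replicate numbers share only a number. With them as a block 303 genes were called, 107 higher, and 57 of the 83 called genes named here were called. Of these 83, all were called by DESeq2.

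For the difference between RT-112 and J82, DESeq2 called 536 genes (352 and 184) against 185 (132 and 53), and leaving out 1 library gave 97 to 270 (68 to 177 and 29 to 93). The counts were 105 without RT-112 CD44 Low replicate 1, 106 and 111 without RT-112 parental replicates 1 and 2, and 117, 97 and 114 without J82 parental replicates 1, 2 and 3. The cause of these shifts was not tested.

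The sign of 4 genes that were not called changed with a library left out: GATA3 to -0.01, -0.12 and -0.05 without CD44 Low replicate 2, CD44 Low replicate 3 and parental replicate 3 (range -0.12 to 0.19), UPK2 to 0.06 and 0.12 without CD44 Low replicates 1 and 2 (range -0.43 to 0.12), JUN to -0.09 and -0.15 without CD44 Low replicate 2 and parental replicate 1 (range -0.15 to 0.18), and JUNB to -0.030 without CD44 Low replicate 2 (range -0.030 to 0.12).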
